A study of Mus musculus with 4 samples.

Results

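The mRNAs described here encode the subunits of the mitochondrial respiratory chain and of ATP synthase that are carried by nuclear genes. All probes that were not array controls and whose gene name matched the families Ndufa, Ndufab, Ndufb, Ndufc, Ndufs, Ndufv, Sdha to Sdhd, Uqcr, Cox4 to Cox8 or Atp5 were taken, which gave 116 of 55681 probes and 86 gene names. The rule used names only and no measured value. It placed 38 genes in complex I, 4 in complex II, 8 in complex III, 19 in complex IV and 17 in complex V. Of the 86 genes, 84 were well above background on all 4 arrays. Ndufa4l2 was well above background on 1 array and Cox8c on 0, so no difference is given for them. A few names caught by the rule do not denote chain subunits: Cox4nb is Emc8, of the ER membrane complex, and Atp5s and Atp5sl are now Dmac2l and Dmac2. Ndufa4, counted here in complex I by its name, is a component of complex IV, and Cox7a2l takes part in supercomplexes.

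RNA came from C2C12 cells, a mouse myoblast line that fuses into myotubes when it differentiates. Cells were transfected with siFxr1, a siRNA against exon 14 of Fxr1, which is shared by all of its isoforms, or with siControl, a control siRNA of random sequence, and were analysed 48 hrs later. All cells were thus transfected, and no untransfected cells were on the arrays. The experiment was done 2 times, and each experiment gave 1 siFxr1 and 1 siControl array, side by side on 1 slide, so that an experiment and its slide cannot be told apart. Signals below are normalized log2 intensities from 1-colour arrays, and a difference of 1 is a 2-fold difference. Where a gene has several probes, the brightest one that was well above background is given. Signals of different probes are not set against each other, since probes differ in brightness.

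Complex I takes electrons from NADH and complex II, the succinate dehydrogenase of the TCA cycle, takes them from succinate. Both pass them to ubiquinone, complex III passes them on to cytochrome c, and complex IV, the cytochrome c oxidase, reduces oxygen. The proton gradient built by complexes I, III and IV drives ATP synthase, called complex V. Most subunits are nuclear-encoded, and a small core is made from mitochondrial DNA, so that both genomes contribute to complexes I, III, IV and V. Some complex IV subunits exist as isoforms from separate genes: Cox6a2, Cox7a1 and Cox8b are the forms of heart and skeletal muscle, and Cox6a1, Cox7a2 and Cox8a are their ubiquitous counterparts. Skeletal muscle takes up the muscle forms when it matures.

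The upstream sequences of a muscle isoform pair and of further members of complex IV are shown because these isoforms differed by unequal amounts between the experiments below. The 250 bases before the RefSeq start of each gene are given 5′ to 3′ on the strand of the gene, from GRCm38.p6. They are chr7:140900447-140900696 (minus strand) for Cox8b, chr19:7217617-7217866 (minus) for Cox8a, chr7:30183921-30184170 (plus) for Cox7a1 and chr5:115348959-115349208 (minus) for Cox6a1. Capitals mark the motifs searched on both strands.
Cox8b: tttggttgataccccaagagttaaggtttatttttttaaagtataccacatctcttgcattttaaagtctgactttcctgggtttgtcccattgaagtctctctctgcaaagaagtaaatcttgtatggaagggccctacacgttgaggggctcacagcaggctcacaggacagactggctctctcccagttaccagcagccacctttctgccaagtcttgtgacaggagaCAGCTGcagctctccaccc
Cox8a: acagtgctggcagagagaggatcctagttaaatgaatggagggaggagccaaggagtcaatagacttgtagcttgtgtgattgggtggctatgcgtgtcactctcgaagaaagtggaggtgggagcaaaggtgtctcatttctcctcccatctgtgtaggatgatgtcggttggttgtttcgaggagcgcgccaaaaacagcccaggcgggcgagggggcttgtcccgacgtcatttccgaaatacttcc
Cox7a1: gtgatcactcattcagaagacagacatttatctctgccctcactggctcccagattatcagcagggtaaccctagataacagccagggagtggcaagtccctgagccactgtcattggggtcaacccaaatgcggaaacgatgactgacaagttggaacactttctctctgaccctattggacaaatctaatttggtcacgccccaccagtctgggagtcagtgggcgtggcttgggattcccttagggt
Cox6a1: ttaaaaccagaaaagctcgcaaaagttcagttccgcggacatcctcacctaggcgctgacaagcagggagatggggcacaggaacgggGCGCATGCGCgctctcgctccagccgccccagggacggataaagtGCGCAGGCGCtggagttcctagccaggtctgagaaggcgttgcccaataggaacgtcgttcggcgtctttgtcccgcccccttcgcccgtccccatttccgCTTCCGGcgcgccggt

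The motifs were a site of nuclear respiratory factor 1 (NRF1), which is GCGC and TGCGC with any base between them, CTTCCGG, a site of GA-binding protein, the E-box CAGCTG of myogenic factors, TATAAA, and the MEF2 consensus. The Cox6a1 sequence held 2 NRF1 motifs, which began 162 and 117 bases before the start, and a CTTCCGG that began 16 bases before it. The Cox8b sequence held CAGCTG, beginning 19 bases before the start. The Cox8a and Cox7a1 sequences held none of the 5 motifs, nor did that of the ubiquitous form Cox7a2, which is not printed. Promoters were listed for 70 of the 86 genes, and not for Cox6a2 or Cox4i1. The NRF1 motif stood in 13 of the 70 genes (18.6%), against 4.23% of 27025 genes with a listed promoter, and CTTCCGG in 12 (17.1%), against 7.83%. CAGCTG stood in 6 of the 70 genes (8.57%) and in 14.7% of all genes, TATAAA in 8.57% and 14.3%, and the MEF2 consensus in 0 and 3.42%. Among 22 genes of a muscle differentiation list, CAGCTG stood in 45.5%, TATAAA in 36.4% and the MEF2 consensus in 22.7%. A match of letters is no measured binding site.

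The knockdown was seen on the arrays. The probe of Fxr1 (NM_008053) read 13.84 and 13.71 in the siControl arrays of experiments 1 and 2, and 10.15 and 10.77 in the siFxr1 arrays, a log2 difference of -3.31 (SE 0.29, n = 2 per condition). Even this difference did not pass the limma test across all probes (adjusted p = 0.950). With the experiment as a block and dim probes left out, it did (adjusted p = 0.017). The myoblast genes Myod1, Des, Cdh15, Chrna1 and Ncam1 were measured, and Myf5 was not well above background on both arrays of a condition. Of 11 markers of other cell types 5 were measured, and Ptprc, Epcam and Gfap were well above background on 0 arrays. Arrays of the same experiment resembled each other more than arrays of the same condition: over the 84 genes, the correlations across genes were 0.994 and 0.993 within experiments, and 0.973 for siControl and 0.980 for siFxr1 between them.

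The first comparison asked whether loss of Fxr1 was accompanied by another level of respiratory chain mRNAs. It showed small differences of mixed sign in all 5 complexes. The median log2 difference of the 84 genes, siFxr1 minus siControl, was 0.08, against 0.02 for all 14315 genes measured. In 81 of the 84 genes the difference stayed within 1.5-fold, as it did in 11207 of all 14315. The median signals of these sets were 15.83 and 11.18, so they are not genes of like brightness. By complex the median differences were 0.07 in I, 0.08 in II, 0.05 in III, 0.11 in IV and 0.08 in V. The complex II median of 4 genes lay between -0.0093 and -0.0014 with normexp, without background correction and in the authors' table, and that of complex V between 0.030 and 0.032, while 75th percentile scaling gave 0.19 and 0.26. The median of the 84 genes was -0.02 in experiment 1, with 39 of 84 genes higher in siFxr1, and 0.12 in experiment 2, with 59 higher. Over all 14315 genes the medians were 0.017 and 0.022, with 7405 and 7402 higher.

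In both experiments, 34 of 84 genes (40.5%) were higher in siFxr1 and 20 (23.8%) were lower. Of all genes measured, 35% were higher and 31.5% lower in both. With other scaling or background treatment, or in the authors' table, 42 to 58 of the 84 were higher and 11 to 13 lower. No member was at least 1.5-fold higher or lower in both experiments, while 5.83% of all genes were that much higher and 5.47% that much lower. The plot of the difference in experiment 1 against that in experiment 2 shows how closely the genes gather around 0.

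**Figure D1:**
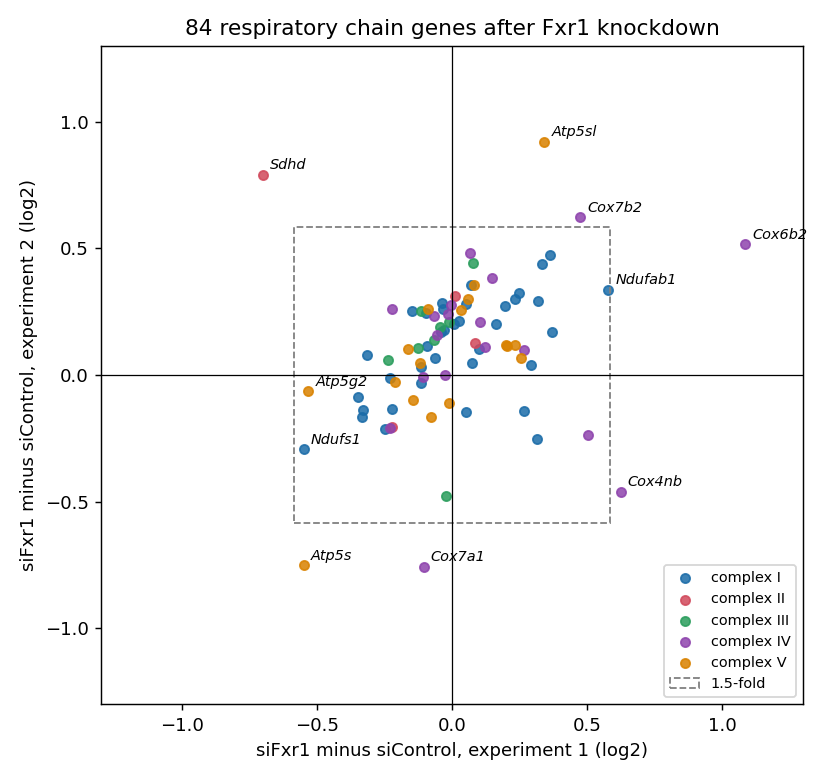
Difference between siFxr1 and siControl (log2) in experiment 1 (horizontal) and experiment 2 (vertical) for the 84 respiratory chain genes measured, each point 1 gene coloured by complex. The dashed square marks 1.5-fold in either direction. No gene lies beyond it in both experiments with the same sign, and Sdhd lies at -0.70 and 0.79.

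No probe of the 116 passed the test. Over all 55681 probes limma called 0 (0%), by an adjusted p under 0.05 and by a B value, the log odds of change, above 0 alike. At an unadjusted p under 0.05 stood 1 of the 84 genes and 1081 of all 14315. With the experiment as a block, still 0 probes were called, and 2 of the 84 genes and 1826 of all had an unadjusted p under 0.05. With the block and without dim probes, 1.1% of 25540 probes were called and 0 of 114 respiratory chain probes, of which Cox6b2 had the lowest adjusted p, 0.187. The probes kept here were well above background on both arrays of a condition, so a probe could enter through 1 condition alone. When the 4 ratios of siFxr1 over siControl arrays entered as observations, which share arrays, 1.99% of probes had a B value above 0, and again 0 of 116.

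The 5 genes that were highest in siFxr1, among those with the same sign in both experiments, were Cox6b2, Atp5sl, Cox7b2, Ndufab1 and Ndufa9. Cox6b2, a testis form of a complex IV subunit, read 6.08 and 6.62 in siControl and 7.16 and 7.14 in siFxr1. Its arrays did not overlap between conditions, and the difference was 0.80 (SE 0.26, adjusted p = 0.975 in limma). Atp5sl, or Dmac2, which serves the assembly of complex I, read 11.69 and 11.16 in siControl and 12.03 and 12.08 in siFxr1, a difference of 0.63 (SE 0.25). Cox7b2, another testis form, read 8.02 and 7.37 in siControl and 8.50 and 8.00 in siFxr1. Its conditions overlapped, although the difference was 0.47 in experiment 1 and 0.62 in experiment 2. Ndufab1, the mitochondrial acyl carrier protein, differed by 0.58 and 0.34, and Ndufa9, an accessory subunit of complex I, by 0.36 and 0.47.

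The 5 lowest were Atp5s, Cox7a1, Ndufs1, Atp5g2 and Uqcrc1. Atp5s read 7.65 and 6.79 in siControl and 7.10 and 6.04 in siFxr1, which is -0.55 in experiment 1 and -0.75 in experiment 2. The spread between the experiments was as large, so the conditions overlapped. Cox7a1 differed by -0.11 and -0.76. Ndufs1, the largest iron-sulphur subunit of complex I, read 15.44 and 15.33 in siControl and 14.89 and 15.04 in siFxr1, which did not overlap, a difference of -0.42 (SE 0.16, adjusted p = 0.975 in limma). Atp5g2, for the proton-carrying ring of ATP synthase, differed by -0.53 and -0.06, and Uqcrc1, a core protein of complex III, by -0.03 and -0.48. Most of these differences thus rested on 1 experiment.

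The catalytic and core subunits showed no common direction. In complex I, Ndufv1, which binds NADH, differed by -0.12 in experiment 1 and 0.03 in experiment 2. In complex II, Sdha, the flavoprotein, was at -0.22 and -0.21, and Sdhb, the iron-sulphur protein, at 0.09 and 0.13. The membrane anchor Sdhc was at 0.01 and 0.31. The other anchor, Sdhd, went opposite ways, from 15.73 to 15.02 in experiment 1 and from 14.41 to 15.20 in experiment 2, siControl first. The Rieske protein of complex III, Uqcrfs1, was at 0.08 and 0.44. In complex IV, Cox4i1 was at 0.15 and 0.38 and Cox5a at 0.06 and 0.48. In complex V, Atp5a1 and Atp5b, of the catalytic head, were at -0.17 and 0.10 and at -0.12 and 0.05, and Atp5c1, its central stalk, at 0.20 and 0.12.

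The other lists are given by their medians and counts. The median difference was 0.17 for 27 assembly factors (17 above and 5 below siControl in both experiments), and 0.11 for 12 probes named for genes of mitochondrial DNA. It was 0.03 for 16 genes of the TCA cycle, -0.19 for 18 of glycolysis, with 11 lower and 2 higher in both experiments, and -0.30 for 14 of proliferation, with 10 lower and 0 higher. The proliferation median was -0.06 in experiment 1, with 4 of 14 higher in siFxr1, and -0.69 in experiment 2, with 0 higher, and the mean signal of the list was 14.31 in siControl of experiment 2 and between 13.59 and 13.65 on the other 3 arrays. The 14 genes of the hypoxia response had a median of 0.09 and medians of -0.05 and -0.15 within experiments 1 and 2, with 4 higher and 6 lower in both. Of these, 2 were at least 1.5-fold lower in both experiments, Car9, a carbonic anhydrase, at -2.14 and -2.72, and Bnip3, a mitophagy receptor, at -0.84 and -1.18, named after their values were seen, and 1 was that much higher. Muscle differentiation genes had a median of 0.08, with 3 of 23 at least 1.5-fold higher in both. Regulators of mitochondrial biogenesis had a median of 0.13 over 15 genes. Ppargc1a, the coactivator PGC-1α, read 6.70 and 6.60 in siControl and 7.06 and 8.40 in siFxr1, a difference of 1.08 that came mainly from experiment 2. The transcription factor gene Nrf1 was at -0.05 and -0.34, and Tfam, which maintains mitochondrial DNA, at 0.30 and 0.22. No probe on these lists was called.

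The second comparison set experiment 1 against experiment 2 within each condition. The median difference of the 84 genes, experiment 1 minus experiment 2, was 0.36, against 0.07 for all genes measured. It was 0.41 in siControl and 0.30 in siFxr1. In both conditions, 59 of 84 genes (70.2%) were higher in experiment 1 and 5 (5.95%) lower, compared with 42% and 32.7% of all genes. At least 1.5-fold higher in both were 11 members and 11.8% of all genes, and at least 1.5-fold lower 0 members and 9.51% of all genes. By complex the medians were 0.34 in I, 0.21 in II, 0.41 in III, 0.40 in IV and 0.28 in V.

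The number of probes called between experiments depended on the processing, including the treatment of dim probes. In limma with condition and experiment as terms, 0% of the 55681 probes had an adjusted p under 0.05, with 0.108 the lowest, and 11172 had an unadjusted p under 0.05. A B value above 0, a rule added after the values were seen, called 664 probes (1.19%), 190 higher and 474 lower in experiment 1. It called 2 of the 116, the probes of Cox8b and Cox6a2. Without dim probes, 19.9% of 27475 probes passed the adjusted p, and 7 of 114 respiratory chain probes (6.14%). These 7, all higher in experiment 1, were probes of Cox8b, Cox6a2, Cox7a1, Atp5s, Atp5l, Cox7c and Ndufb5. For Atp5l, Cox7c and Ndufb5 it was a dimmer probe than the one used for the gene. The filter on dim probes kept those well above background on both arrays of an experiment, so a probe could enter through 1 experiment alone. The 114 probes were well above background on all 4 arrays, so 19.9% and 6.14% are not shares of like probes. Nor are the counts over 55681 and 116 probes, since only 25540 of the 55681 were well above background on both arrays of a condition. With 75th percentile scaling and dim probes kept, 5846 of the 55681 probes passed the adjusted p, and 9 of the 116. Whether the share of calls in the respiratory chain was below or above that of the array depended on the setting.

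**Figure D2:**
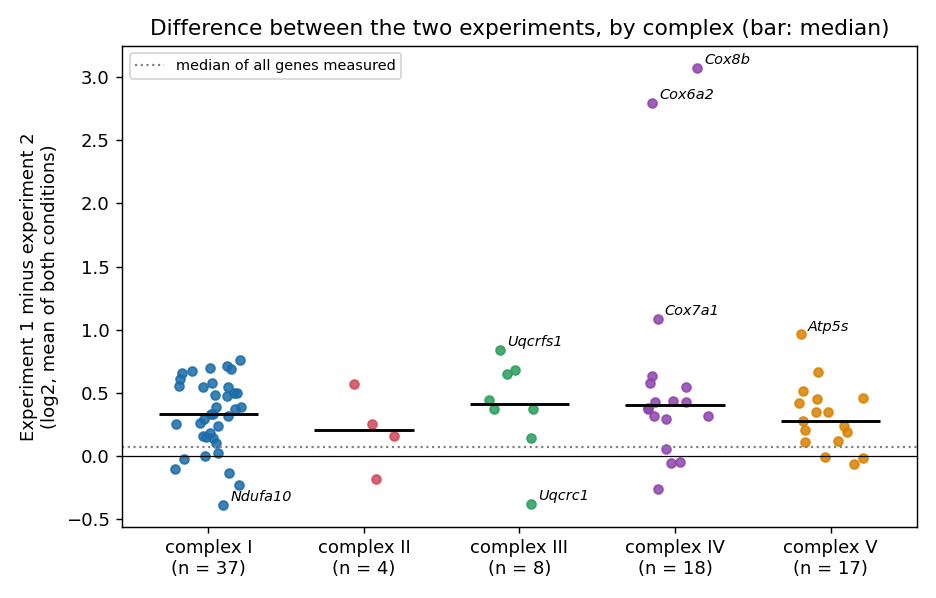
Difference between experiment 1 and experiment 2 (log2, mean of both conditions) for the 84 genes by complex. Each point is 1 gene, the bars are the medians of 0.34, 0.21, 0.41, 0.40 and 0.28, and the dotted line is the median of all genes measured, 0.07. Cox8b, Cox6a2 and Cox7a1 lie above 1.

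The muscle isoforms of complex IV had the largest differences. Cox8b (NM_007751, probe at chromosome 7, 148084852 to 148084911 on mm9) read 13.29 on both arrays of experiment 1, and 10.08 (siControl) and 10.36 (siFxr1) on those of experiment 2. Cox6a2 (NM_009943, chromosome 7, 135349160 to 135349219) read 12.89 and 12.66 in experiment 1, and 10.09 and 9.88 in experiment 2. The experiments did not overlap, and the differences were 3.07 (SE 0.21) and 2.79 (SE 0.19), or 8.42-fold and 6.94-fold (limma adjusted p = 0.108 for both, and 0.0035 without dim probes). Cox7a1 (NM_009944) read 11.67 and 11.56 in experiment 1 and 10.90 and 10.15 in experiment 2, a difference of 1.09 (SE 0.27, limma adjusted p = 0.184, and 0.045 without dim probes).

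The ubiquitous forms differed less. Cox8a read between 18.07 and 18.18 on the 4 arrays, a difference of 0.06 (SE 0.19). Cox6a1 differed by 0.42 and Cox7a2 by 0.63. For all 6 genes the difference between siFxr1 and siControl within an experiment was smaller than that between experiments, except for Cox8a, where both were at most 0.11. In none of the 3 muscle forms did siFxr1 and siControl separate, as is seen in the plot of isoforms by array. Of the other isoforms, Cox6b1, Cox7b and Cox7b2 were higher in experiment 1 in both conditions, by 0.54, 0.43 and 0.58 on average. Cox4i2, a form of lung and hypoxic cells, differed by -0.42 in siControl and 0.32 in siFxr1, and Cox6b2 by -0.55 and 0.02. The 3 genes for the ring subunit of ATP synthase, Atp5g1, Atp5g2 and Atp5g3, were at 0.12, 0.19 and 0.42.

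**Figure D3:**
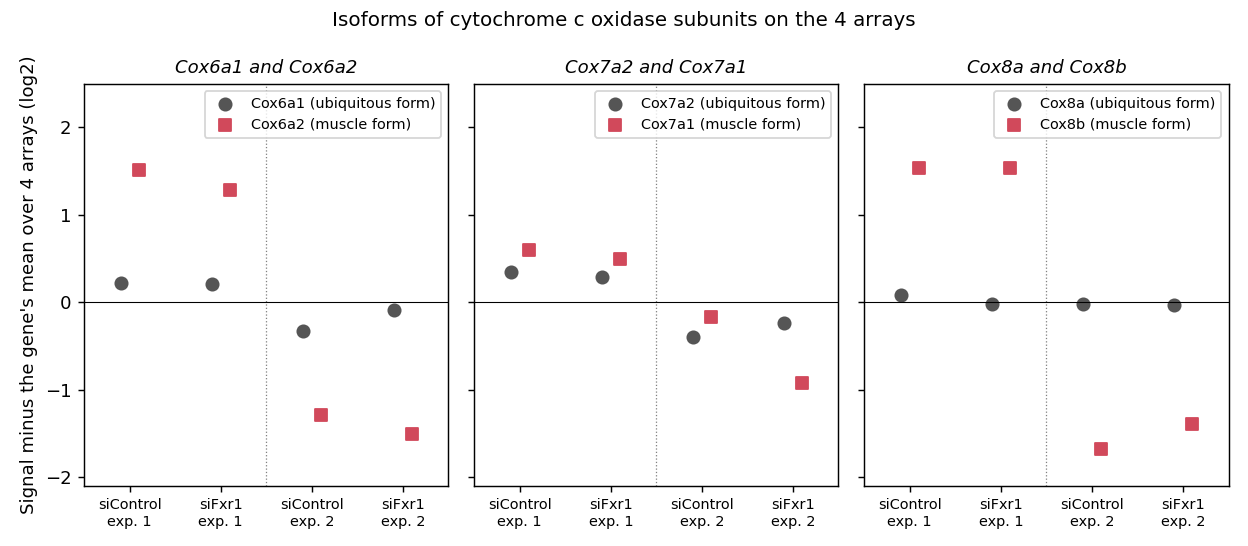
Signal of each gene minus its own mean over the 4 arrays (log2) for 3 pairs of complex IV isoforms. Circles are the ubiquitous and squares the muscle forms, with experiment 1 on the left of each dotted line; Cox6a2 and Cox8b are separated by experiment, with differences of 2.79 and 3.07, and Cox8a is nearly flat at 0.06.

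Within complex I, the catalytic core and the accessory subunits differed in their medians. The 7 nuclear-encoded core genes, which hold the cofactors, had a median of 0.00032, with 1 higher and 1 lower in experiment 1 in both conditions. The 30 accessory genes had a median of 0.43, with 25 higher and 2 lower. Ndufs1 read 15.44 and 14.89 in experiment 1 and 15.33 and 15.04 in experiment 2, siControl first, and Ndufv1 read 16.35 and 16.23, and 16.38 and 16.41. Among accessory genes, Ndufa5 read 16.44 and 16.51 in experiment 1 and 15.69 and 15.74 in experiment 2, a difference of 0.76 and the largest of complex I. The split is a description of medians. Scaling each array to its 75th percentile moved the medians to 0.58 and 0.94, so that the core genes were then also higher in experiment 1.

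Among the other complexes, Uqcrfs1 of complex III read 15.18 and 15.25 in experiment 1 and 14.15 and 14.60 in experiment 2, a difference of 0.84 (SE 0.22). Uqcrq and Uqcr10, small subunits of the same complex, were at 0.65 and 0.68. Atp5s differed by 0.86 in siControl and 1.06 in siFxr1. The 5 genes lower in experiment 1 in both conditions were Ndufa10 (-0.39), Uqcrc1 (-0.38), Sdhc (-0.18), Ndufb7 (-0.13) and Ndufv1 (-0.11). A dimmer probe of Sdhc went the other way, at 0.63 in siControl and 0.23 in siFxr1. The 5 listed values were all above 0 with 75th percentile scaling. In the catalytic head of ATP synthase, Atp5a1 was at 0.51, Atp5c1 at 0.28 and Atp5b at -0.06, the last at 0.51 with that scaling. Sdha was at 0.25 and Sdhb at 0.16. Sdhd again depended on the array, with 1.31 in siControl and -0.18 in siFxr1. Cox4i1 and Cox5a were at 0.29 and 0.32.

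The other lists show how far the shift reached. Assembly factors had a median of 0.38, with 21 of 27 genes higher and 2 lower in experiment 1 in both conditions. Electron carriers and further chain proteins had 0.41, with 12 of 14 higher, among them Cycs, cytochrome c, at 0.64, and the phosphate carrier Slc25a3 at 0.71. TCA cycle genes had 0.03, which became 0.59 with 75th percentile scaling. Probes named for mitochondrial DNA genes had -0.09, which turned to 0.37 with that scaling, and spread widely, from -1.59 for COX1 and -1.37 for ND4L to 1.09 for ND3. Glycolysis genes had -0.48, with 13 of 18 lower and 3 higher in experiment 1, a median that became 0.01 with 75th percentile scaling. The medians of the hypoxia response (14 genes), proliferation and biogenesis lists were -0.21, -0.14 and 0.29. The proliferation median was -0.47 in siControl and 0.15 in siFxr1. Of its 14 genes, 6 were lower and 2 higher in experiment 1 in both conditions, and 6 had mixed signs.

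**Figure D4:**
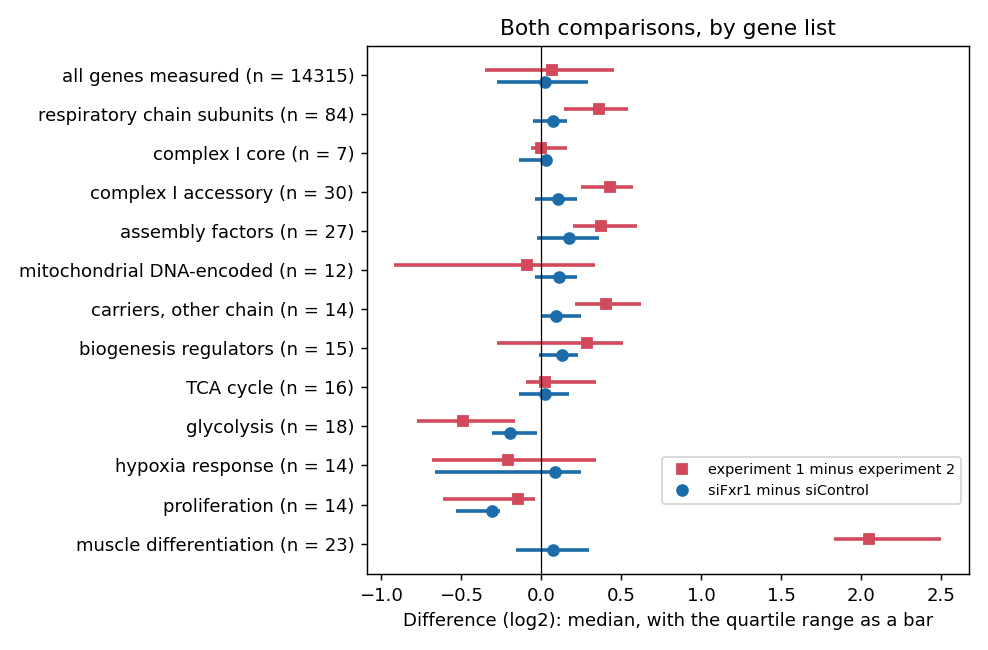
Median difference (log2) of the genes of each list, with the range between quartiles as a bar, for experiment 1 minus experiment 2 (squares) and siFxr1 minus siControl (circles). The respiratory chain subunits are at 0.36 and 0.08, and muscle differentiation genes at 2.05 and 0.08.

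Several measured features moved with the experiment. Genes of muscle differentiation, such as Mylpf, Myh1, Ckm and Tnnc2, which encode proteins of the contractile apparatus and creatine kinase, differed by 3.53, 3.51, 2.82 and 2.70. Over the list the median was 2.05, with 22 of 23 measured genes higher and 1 lower in experiment 1 in both conditions, and its mean signal was 13.08 and 13.41 in experiment 1 and 11.22 and 11.17 in experiment 2. Probes well above background made up 45.9% and 45.4% of the array in experiment 1 and 49.7% and 52.9% in experiment 2. RNA integrity numbers did not split by experiment: they were 9 in 3 samples, and 8 in the siFxr1 sample from experiment 1. The part of differentiation state, array signal and RNA quality in the shift of the respiratory chain was not tested. In bulk RNA, more cells with a transcript and more transcript per cell cannot be told apart. Among genes of like brightness, 889 others with a mean signal in the range between the members' quartiles had a median of 0.05, with 41.5% higher in experiment 1 in both conditions, while the 42 members in that range had 0.35. With 75th percentile scaling the median of all genes moved from 0.07 to 0.25, that of the equally bright genes to 0.63 and that of the members to 0.93.

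Different probes of a gene mostly gave one direction. Of 23 genes with several probes above background, 21 had the same sign on all probes between conditions and 20 between experiments. The exceptions were Ndufb11 and Atp5l between conditions, and Ndufv3, Sdhb and Sdhc between experiments. Among the 5 probes of Atp5l, the difference between experiments ranged from 0.55 to 0.98.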

How the data were processed

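C2C12 RNA was measured on 4 1-colour Agilent arrays, 2 per condition, and all 4 were used, in groups taken from the labels. Per array, the authors deposited spot intensity values from Agilent Feature Extraction 10.7.3.1, background-corrected within the array and not normalized between arrays, with marks of 0 or 1 for spots well above background or uneven. They also deposited a table of quantile-normalized intensity on a linear scale, which ranks spots as the raw median intensity does.

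Log2 values of the background-corrected intensity were quantile-normalized over 59305 spots. Between 145 and 177 outlier spots per array were then set to missing, and 0 were saturated. Spots of a probe were averaged. Fits used limma 3.58.1 in R 4.3.3 on all 55681 probes, with condition as the only term, or with condition and experiment to compare experiments, and Benjamini-Hochberg adjustment. A gene counted as measured when its probe was well above background (at least 0.5 of its spots) on both arrays of a condition. With 2 arrays against 2, an exact permutation test cannot go below p = 0.333, so none was used for single genes. The number of arrays limits the precision. The series' design text calls the experiments independent, and the study's methods call the replicates biological. The p-values measure the spread between these samples.

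Because the replicate number is the experiment, and its samples shared a slide, the numbers pair the samples: deviations from the condition means correlated at 0.714 over 25523 probes. Gene names and positions (mm9) are those of the array. Members and lists were chosen with earlier results of these data known. Genes named are Fxr1, the 5 largest differences in each direction and comparison with the same sign in both pairs, core subunits (1 is not reported here), tissue isoforms, and up to 4 genes per other list. Other named genes were chosen after their values were seen (Ndufa5, Uqcrq, Uqcr10, Atp5l, Cox7c and Ndufb5). Motifs were searched in RefSeq promoters of GRCm38.p6. Alternatives were another scaling (75th percentile), normexp (offset 50) or no background correction, the authors' table, leaving out dim probes, a block for the experiment or no condition term, a trend in the variance prior, ratios as observations, all probes of a gene, and each array left out. The fits were tested on simulated data.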

Additional observations from a re-analysis of the deposited data

How the results depend on the processing

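Between siFxr1 and siControl, the replicate block left 0 probes called, and its median over the 84 genes was 0.078; block and filter on dim probes together, added after the data were seen, called 280 probes by adjusted p and 354 by B, and the 4 ratios 1064 and 1107. The block changed no other call, and no alternative called a respiratory chain probe in this comparison. Between experiments, probes called by adjusted p numbered 5846 with 75th percentile scaling, 4471 with normexp, 5092 with no background correction, 5450 with the authors' table, 5473 with the filter on dim probes, and 308 with a variance trend, where B called 3202, 1921, 2127, 2240, 1818 in the first 5 of these. Respiratory chain probes called by adjusted p were 9, 20, 22, 22, 7 and 2 in that order, and by B 4 without background correction and in the authors' table. These are of 116 respiratory chain probes and 55681 on the array, or of 114 and 27475 with the filter. By adjusted p, the respiratory chain share was below that of the array with 75th percentile scaling and with the filter. It was above that of the array in the other settings of this row. Without the filter, these are not shares of like probes. Only 25540 of the 55681 probes were well above background on both arrays of a condition, against 114 of the 116 on all 4 arrays. Genes lower in siFxr1 in both experiments were 11, 13, 11 and 13 with the first 4 settings, against 58, 42, 42 and 42 higher. Shares over all genes were not taken at these settings. With 75th percentile scaling, 1 gene was lower in experiment 1 in both conditions. With 75th percentile scaling the medians between experiments were 0.93, 0.92, 0.79, 1.02, 0.97, 0.80 for all members and complexes I to V, and between conditions 0.21, 0.21, 0.21, 0.23, 0.26 for all members and complexes I, III, IV and V. The complex I median between experiments was 0.40, 0.40, 0.42, 0.37 with normexp, no background correction, the authors' table and all probes of a gene. Named genes whose sign turned with 75th percentile scaling were, between conditions, Atp5a1 0.12, Atp5b 0.12, Atp5g3 0.011, Cox8a 0.078, Ndufa10 0.0053, Ndufb7 0.033, Ndufv1 0.11, and between experiments, Atp5b 0.51, Ndufa10 0.076, Ndufb7 0.51, Ndufs1 0.52, Ndufv1 0.54, Sdhc 0.35, Uqcrc1 0.13. With normexp, no background correction and the authors' table, the sign turned for Cox4i2 (experiments) 8.0e-04, 0.025, 0.027 and Sdhd (conditions) -0.13, -0.13, -0.13. Leaving out an array leaves the experiments unequally filled. Between conditions the medians then ran from -0.091 to 0.30 (complex I), -0.16 to 0.17 (complex II), -0.25 to 0.33 (complex III), -0.097 to 0.39 (complex IV), -0.093 to 0.25 (complex V), -0.11 to 0.29 (all members), and between experiments from 0.35 to 0.39 (complex I), -0.022 to 0.22 (complex II), 0.26 to 0.56 (complex III), 0.35 to 0.50 (complex IV), 0.26 to 0.41 (complex V). Genes whose sign depended on 1 array ran, between conditions, from -0.36 to 0.29 for Atp5a1, -0.11 to 0.036 for Atp5b, -0.38 to 0.14 for Atp5g3, -0.076 to 0.34 for Cox4i2, -0.17 to 0.39 for Cox6a1, -1.62 to 1.18 for Cox6a2, -0.13 to 0.50 for Cox6b1, -1.14 to 0.27 for Cox7a1, -0.32 to 0.42 for Cox7a2, -0.18 to 0.34 for Cox7a2l, -0.084 to 0.39 for Cox7b, -1.47 to 1.74 for Cox8b, -0.29 to 0.19 for Ndufa10, -0.13 to 0.34 for Ndufa4, -0.13 to 0.047 for Ndufv1, -0.0058 to 0.33 for Sdhc, -0.61 to 0.70 for Sdhd, -0.55 to 0.051 for Uqcrc1, -0.25 to 0.77 for Uqcrfs1, and between experiments, from -0.15 to 0.020 for Atp5b, -0.017 to 0.26 for Atp5g1, -0.048 to 0.42 for Atp5g2, -0.054 to 0.53 for Atp5sl, -0.42 to 0.32 for Cox4i2, -0.55 to 0.023 for Cox6b2, -0.15 to 0.11 for Ndufs1, -0.18 to 1.31 for Sdhd. Without an array, the comparison of experiments has no residual degree of freedom and gives values with no test. Why the counts of calls differ between settings was not tested. All 84 genes were well above background, and Ndufa4l2 and Cox8c were not. The dimmest of the 84 were Cox6b2 and Atp5s, with mean signals of 6.75 and 6.89, against a median of 15.83. These 2 genes had the largest rise and the largest fall between conditions. The lowest signal counted as well above background was between 4.19 and 5.36 on the 4 arrays. Cox4i2, whose sign turned, was also dim, at 7.47.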
